A study of Mus musculus with 12 samples.

Results

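The data described here are the time course of 2 control cell lines, numbered 15 and 18, in a mouse study of melanoma rejection. The rule took the 2 gene expression libraries that each hold a single control line, kept cells with at least 300 genes, at most 15% mitochondrial UMIs (unique molecular identifiers, the counted RNA molecules) and a top hashtag of at least 20 counts and at least 3 times the second, and then kept non-immune cells. A cell was called non-immune when it held no UMI of Ptprc, Cd3e or Pecam1 and at most 1 of Tyrobp. This left 23068 cells in 15 hashtags, 7675 cells in 8 hashtags of line 15 and 15393 cells in 7 hashtags of line 18, of 79198 non-immune cells in 45 hashtags over all 6 libraries. The lines carry the name SCC35 in the labels and serve as controls for lines with a knockout of Mif, the gene of macrophage migration inhibitory factor; the hashtag sheet calls them KO control. No treatment is named for any group. The sheet gives each hashtag a day (0, 6, 10 or 16) and a letter (A or B), and 1 hashtag, line 18 at day 0 letter B, had 33 hashtag counts and no assigned cell. Day 0 therefore holds 3 sums (line 15 letters A and B, line 18 letter A) and each later day holds 4.

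A tumour that grows from injected cells meets conditions that a culture dish does not have: less oxygen, a matrix with fibroblasts and vessels, and immune cells that release interferons and other cytokines. Interferon gamma acts through transcription factors that include Irf1 and raises genes of antigen presentation by MHC class I, the complex that shows peptides to CD8 T cells. Immediate early genes such as Fos, Egr1 and Nr4a1 are transcribed within minutes of a growth factor, a stress or the handling of tissue, and amino acid shortage raises targets of the factor Atf4, which make serine, asparagine and cysteine.

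Counts were summed over the non-immune cells of each hashtag, and levels are given as CPM, the count of a gene scaled to the size of its sum with edgeR's TMM factors. A sum held 196 to 5555 cells and from 1.77238e+06 to 2.86495e+07 UMIs, and line 18 at day 0 was the smallest in both. The labels do not say what the day 0 cells are, whether they went through the dissociation described for tumours, whether a line is a single clone, or whether letters A and B are separate animals. A change from day 0 and a difference in handling therefore cannot be told apart, nor can line and library, and p-values measure the spread between hashtag sums. The 7 pairs of letters that share a line and a day differed by more than sampling noise, with a chi-square over genes of 3.125 to 11.54 times its degrees of freedom. The 2 libraries shared 375 barcodes among their assigned cells.

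Genes that define melanocytes were nearly absent. Tyr, Slc45a2 and Gpr143 had no UMI in any of the 15 sums, Tyrp1 had 1 UMI, Mlana 3 in all (1 at day 0 and 2 later), Dct 13, and Pmel reached at most 0.385 CPM. Mitf, the regulator of the melanocyte lineage, was the only one of 10 listed lineage genes with enough counts to test. It stood at 8.48, 9.63 and 4.54 CPM at day 0 and between 13.02 and 23.4 CPM later (median 17.3), and rose with a log2 fold change of 1.08 ± 0.16 (SE; adjusted p = 4.21e-05 by edgeR). The cells are called non-immune cells here because no marker identifies them as melanoma cells.

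The make-up of the hashtags changed first of all. At day 0 non-immune cells were 98.6%, 98.7% and 99.5% of assigned cells (Wilson 95% intervals of 97.5 to 99.2, 97.5 to 99.3 and 97.2 to 99.9, counting error only). At the later days they were 50.7% to 78.0% (median 66.2%, mean 66.3% ± 8.86, SD, n = 12). No later hashtag reached a day 0 hashtag, and the difference was -32.7 percentage points. It was -49.5 points under a stricter rule of at least 50 hashtag counts and 10 times the second. This share counts cells that pass the rule itself and is given as a description, with no test. Markers of several other cell types were also higher inside the non-immune sums. Relative to the total UMIs of each sum, without TMM factors, the level of 9 fibroblast markers together was 14.99 to 30.5 CPM at day 0 and 142 to 507 CPM later, and that of 13 macrophage markers 18.9 to 37.8 and 52.1 to 242 CPM, against at least 5079 CPM in immune cells of the same hashtags. The 10 T cell markers summed to at most 0.199 CPM at day 0 and to between 2.06 and 15.7 CPM later, with Cd3d, Cd3g and Trbc2 at 0 in the day 0 sums. The 8 endothelial markers held 13.5 to 24.8 and 14.8 to 28.3 CPM. The rule itself left out cells with a Pecam1 or Cd3e UMI, so these values describe what remained. The 6 skeletal muscle markers went the other way in line 15, from 297 and 148 CPM at day 0 to between 9.20 and 52.9 CPM later, and held 8.46 and then 4.15 to 10.7 CPM in line 18. Cells with at least 3 fibroblast UMIs were 0% to 0.489% of non-immune cells at day 0 and 2.07% to 9.19% later. In such sums, fewer cells of a type and less RNA per cell cannot be told apart.

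**Figure D1:**
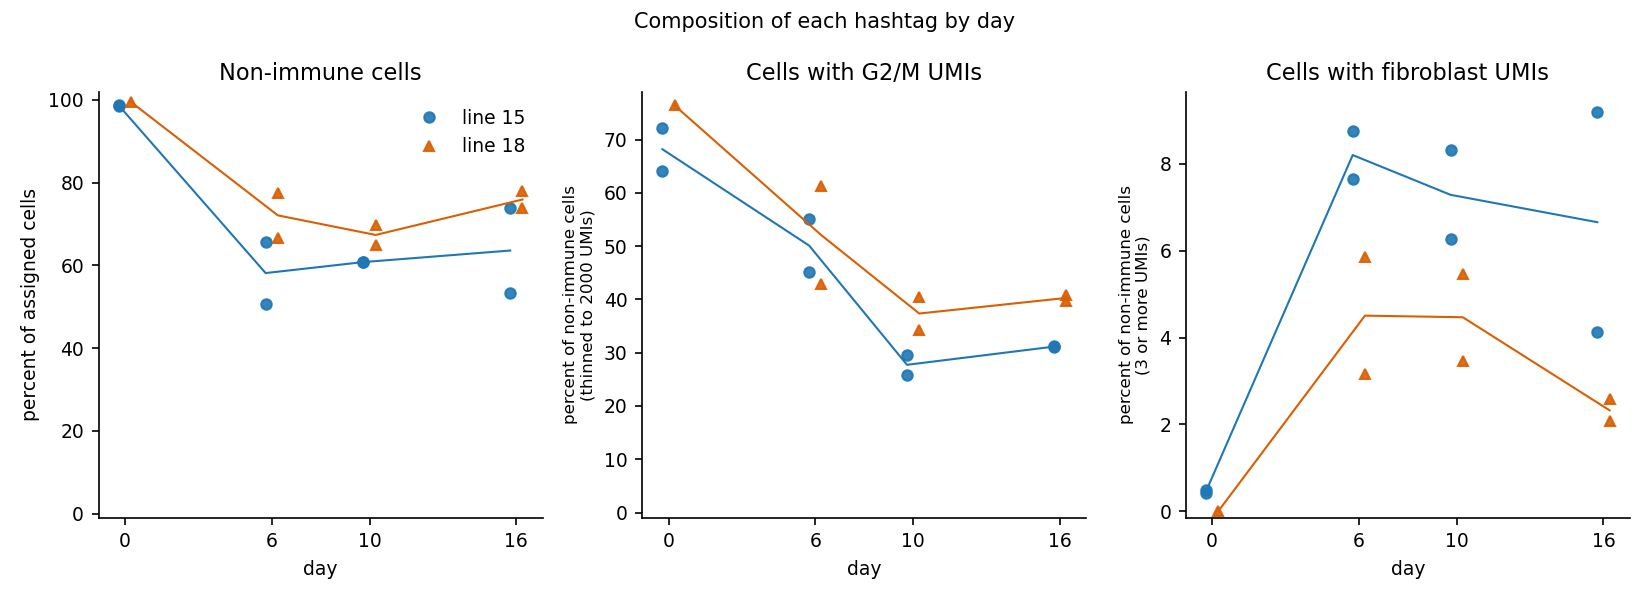
Percent of assigned cells that are non-immune (left), percent of non-immune cells with at least 2 UMIs of G2/M genes after thinning to 2000 UMIs (middle) and percent of non-immune cells with at least 3 fibroblast marker UMIs (right), by day, with a point per hashtag and lines through the means of each control line. Day 0 hashtags sit at 98.6% to 99.5% in the left panel and above every later hashtag in the middle panel, and below every later hashtag in the right panel.

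Against day 0, the mean of days 6, 10 and 16 differed for 7424 of 12827 genes tested (57.9%) at an edgeR adjusted p under 0.05, with 3799 higher (29.6%) and 3625 lower (28.3%). Day 6 alone differed from day 0 for 5837 genes (45.5%), day 10 for 7279 (56.7%) and day 16 for 7075 (55.2%). These comparisons share the same 3 day 0 sums. The median log2 fold change over all genes was 0.02, and 2571 genes were higher and 2471 lower in every later sum than in every day 0 sum of their own line. Genes named for the size of their change from day 0 were chosen among these genes. Their lack of overlap within a line was thus set by the choice and is no further result. Without line 18 at day 0, 6986 genes passed, and line 18 alone gave 2377. The counts for gene groups are read against these shares.

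Immediate early genes rose together. Of 18 listed, 16 were higher, Myc was lower, and Fosl1, a late member of the Fos family, did not pass (log2 fold change 0.22, edgeR adjusted p = 0.0648); the median was 2.15. Fos, which pairs with Jun proteins to form the AP-1 factor, held 114, 189 and 194 CPM at day 0 and 348 to 1622 CPM later (median 846). All 12 later sums lay above all 3 day 0 sums. Its log2 fold change was 2.35 ± 0.20 (SE; adjusted p = 2.32e-07 by edgeR). Egr1, a zinc finger factor induced by growth factor signalling, held 34.2, 63.6 and 54.0 CPM at day 0 and 133 to 664 later (median 332), a log2 fold change of 2.94 ± 0.28. Nr4a1, an orphan nuclear receptor, went from 24.2, 43.0 and 32.9 CPM to between 107 and 291 CPM (median 213; 2.72 ± 0.31, edgeR adjusted p = 2.7e-06). The groups of these genes did not overlap either, but Egr1 and Nr4a1 were chosen among genes without overlap within each line. Zfp36, which speeds the decay of cytokine mRNAs, rose by 2.97 on the log2 scale, Junb by 2.39 and Dusp1, a phosphatase that switches off MAP kinases, by 2.36. Myc, in contrast, was at 122, 108 and 149 CPM at day 0 and at 49.3 to 96.9 later (log2 fold change -0.75; 0.50 and not called without the cells that held 2 G2/M UMIs). Immune cells also transcribe these genes: the later level of Fos in non-immune cells was 71.3% of that in immune cells of the same hashtags, and that of Egr1 was 252%. With the cells that held any fibroblast, keratinocyte or pericyte marker UMI left out, 17 of the 18 genes were higher, 1 was lower and the median was 2.14.

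The promoters of this group were examined because its members moved together. TGACG, the core of the site bound by CREB and ATF factors, was searched on both strands in the 250 bases before each start in RefSeq annotation of GRCm38.p6, and was found in 10 of 14 listed immediate early genes with a promoter entry (71.4%) and in 19.8% of 27025 genes. Stretches of 120 bases from 3 of them are printed 5′ to 3′ on the gene's strand, with matches in capitals (TGACG, or CGTCA for the other strand; the longer run in Dusp1 is a match on each strand that overlap). The Fos stretch is chr12:85473729-85473848 (+), that of Dusp1 chr17:26508588-26508707 (-) and that of Nr4a1 chr15:101266711-101266830 (+). The CArG box, bound by serum response factor, was found in 2 of the 14 (Egr2 and Zfp36), against 1.62% of all genes. TGACG was not particular to this group. It was also found in 7 of 13 MHC class I genes (53.85%), 4 of 15 Atf4 targets (26.67%) and 2 of 21 interferon targets (9.52%). A match is a description of the sequence and not evidence of binding.
Fos: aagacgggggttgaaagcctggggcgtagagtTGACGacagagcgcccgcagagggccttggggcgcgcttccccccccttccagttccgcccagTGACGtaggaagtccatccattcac
Dusp1: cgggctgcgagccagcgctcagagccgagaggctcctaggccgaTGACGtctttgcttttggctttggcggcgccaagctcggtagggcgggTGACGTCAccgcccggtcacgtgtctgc
Nr4a1: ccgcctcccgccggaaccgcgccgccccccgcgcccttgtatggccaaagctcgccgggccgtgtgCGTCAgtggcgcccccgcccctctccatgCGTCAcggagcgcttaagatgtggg

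Cytokines and targets of NF-kB rose in 18 of 19 tested members, and Csf1 did not pass (log2 fold change -0.34). The median was 3.30 and is the same with Csf3, which had no UMI at day 0, at the bound that a count of 3 allows. Cxcl1, a chemokine that attracts neutrophils, held 72.4, 149 and 62.5 CPM at day 0 and 207 to 1449.9 CPM later (median 844; log2 fold change 3.30 ± 0.43, edgeR adjusted p = 1.19e-05). Line 15 sums (996 to 1449.9 CPM) were above those of line 18 (207 to 692 CPM) at every later day. Nfkbia, the inhibitor that NF-kB induces against itself, went from 185, 311 and 182 CPM to between 506 and 1683 CPM (median 1204; 2.44 ± 0.23). Ccl2, a chemokine for monocytes, went from 26.8, 36.9 and 22.2 CPM to between 71.4 and 620.5 CPM (median 309; 3.73 ± 0.46). In all 3 genes the later sums lay above the day 0 sums without overlap. For Cxcl1 and Nfkbia the choice itself required this within each line. Cxcl1 was 260.3% of its immune cell level and Ccl2 62.8%, and macrophage markers moved in the same direction; their part in the result was not tested. Line 18 alone called 8 of the 19 genes higher and 1 lower, against 7.95% of all genes higher and 10.2% lower in that fit. Without the cells that held 2 G2/M UMIs, 7 of the 19 were called higher, against 5.95% of all genes.

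Among the later days, day 10 had the most interferon targets called higher than day 0. Of 24 tested, 5 were higher at day 6 (median 0.29), 18 at day 10 (median 1.10) and 7 at day 16 (median 0.72), and none was lower. The shares of all genes that were higher on these days were 22.6%, 29.8% and 29.2%, so the counts at days 6 and 16 were near those of all genes. Day 10 was not tested against day 6 or day 16. Summed over the list, levels overlapped: 788.4 to 2613.5 CPM at day 6, 1462 to 2925.9 at day 10 and 1230.5 to 1772.3 at day 16. The day 10 count was not taken without line 18 at day 10 letter A. For the mean of the later days 9 were higher (median 0.68), against 29.6% of all genes, and the 9 were Irf1, Gbp2, Gbp3, Gbp7, Cxcl9, Cxcl10, Socs1, Parp14 and Irf7. Irf1, the factor that carries the interferon gamma signal to many targets, held 17.7, 25.6 and 17.0 CPM at day 0 and 37.3 to 213 CPM later (median 135), without overlap (within lines a condition of its choice). Its log2 fold change was 2.90 ± 0.45 (SE; adjusted p = 5.48e-05 by edgeR). Gbp2, a GTPase of the defence against intracellular microbes, held 3.67, 4.97 and 5.11 CPM at day 0 and 19.7 to 299 CPM later (median 43.3; 3.29 ± 0.72, edgeR adjusted p = 0.00114). The highest sum, line 18 at day 10 letter A, stood far above the other 3 of that day (46.5 to 55.2 CPM), and without it Gbp2 rose by 3.16 on the log2 scale. Isg15, a ubiquitin-like protein induced by type I interferon, held 266, 255 and 89.7 CPM at day 0 and 96.3 to 331 CPM later (log2 fold change 0.06, edgeR adjusted p = 0.871). The ranges overlapped, but in line 18 every later sum lay above the 89.7 CPM of its only day 0 sum. Bst2 (-0.04), Xaf1 (-0.03) and Ifit2 (0.03) were also near 0. Of the 24 genes, 12 were higher in every later sum than in every day 0 sum of their own line, against 20% of all genes. DESeq2 called 18 of the 24 higher (29.6% of all genes), and the fit without line 18 at day 10 letter A 13 (29.5% of all genes). Line 18 alone has a single day 0 sum, so its count is not set beside these.

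The GAAANNGAAA pattern, the core of the element bound by interferon-activated factors, was present in 12 of 21 interferon targets with a promoter entry (57.1%), searched in the same windows on both strands, and in 3.46% of all genes. It was present in Gbp2, which rose, and in Isg15, for which no change was detected in the fit over both lines, and both stretches are printed because these members differ in their response. The Gbp2 stretch is chr3:142620514-142620633 (+), with the match on the other strand, and the Isg15 stretch is chr4:156200855-156200974 (-), with 3 matches that overlap; capitals mark the matches.
Gbp2: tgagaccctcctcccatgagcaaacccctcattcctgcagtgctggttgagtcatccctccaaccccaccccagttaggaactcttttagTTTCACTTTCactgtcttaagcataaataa
Isg15: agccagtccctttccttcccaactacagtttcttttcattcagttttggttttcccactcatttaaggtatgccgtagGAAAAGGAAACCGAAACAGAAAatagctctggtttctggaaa

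Genes of MHC class I presentation were higher mostly from day 10 on: of 15 tested, 3 were higher and 1 lower at day 6, 11 higher at day 10 and 9 at day 16. The day 6 counts were near the shares of all genes, 22.6% higher and 22.9% lower. Over the later days together 9 were higher and none lower (median 0.65), among them the heavy chains H2-D1 and H2-K1, B2m, the non-classical H2-T23, the peptide loading factor Tapbp and the peptide trimming enzyme Erap1. Without line 18 at day 10 letter A the count was also 9. There Tap1 (0.50), Tap2 (-0.25), Psmb8 (0.57), Psmb9 (0.77), Psmb10 (0.13) and Nlrc5 (0.03) did not pass. H2-D1 held 880.3, 838 and 459 CPM at day 0 and 432 to 944 CPM at day 6, with no difference detected (log2 fold change -0.03). At day 10 it held 951 to 1395 CPM and at day 16 985 to 1470.2 CPM, above every day 0 sum (0.90 at each of these days; edgeR adjusted p = 0.00077 at day 16). H2-T23 had already moved at day 6, from 25.6 to 30.7 CPM at day 0 to 46.0 to 77.9 CPM, and reached 157 CPM in line 18 at day 10 letter A. Among ligands of immune checkpoints, 9 of 11 were higher (median 0.97). Without line 18 at day 10 letter A the largest rises of this list were Cd86 (4.08), Pdcd1lg2 (2.45) and Vsir (2.33). Macrophage markers rose in the same sums, and the part of immune cells in this list was not tested. Cd47, the signal that restrains phagocytosis, held 122, 125 and 108 CPM at day 0 and 165 to 284 later (0.97 ± 0.08), and Cd274, which encodes PD-L1, held 2.13 to 2.68 and 4.87 to 23.2 CPM (1.77 ± 0.51, edgeR adjusted p = 0.00727). Cd274, too, was highest in line 18 at day 10 letter A, and rose by 1.68 on the log2 scale without it. The MHC class II gene Cd74 was at 1.49% of its level in immune cells, and 4 of 6 tested class II genes were higher (their median went from 3.78 to 1.15 under a stricter immune rule that left out cells with further immune markers).

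Targets of hypoxia were higher while most glycolytic enzymes moved little. Of 18 hypoxia genes, 14 were higher, Anln was lower and the median was 0.83. Ndrg1, a stress gene induced at low oxygen, held 70.6, 101 and 41.5 CPM at day 0 and 88.8 to 324 later (median 167; log2 fold change 1.61 ± 0.17), and within each line every later sum lay above day 0. Car9, a carbonic anhydrase of hypoxic tumours, held 54.5, 62.7 and 11.9 CPM and then 21.7 to 199 CPM (1.35 ± 0.31, edgeR adjusted p = 0.00168); it overlapped at day 6. The glucose transporter Slc2a1 rose by 0.90 on the log2 scale. Of 13 glycolysis genes 5 were higher and 2 lower, with a median of 0.03, against 29.6% of all genes higher and 28.3% lower. The transporter Slc16a3 stood apart in this list. Without line 18 at day 10 letter A it rose by 4.37 on the log2 scale, and the other tested members lay between -0.25 (Ldha) and 0.39 (Hk2).

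**Figure D2:**
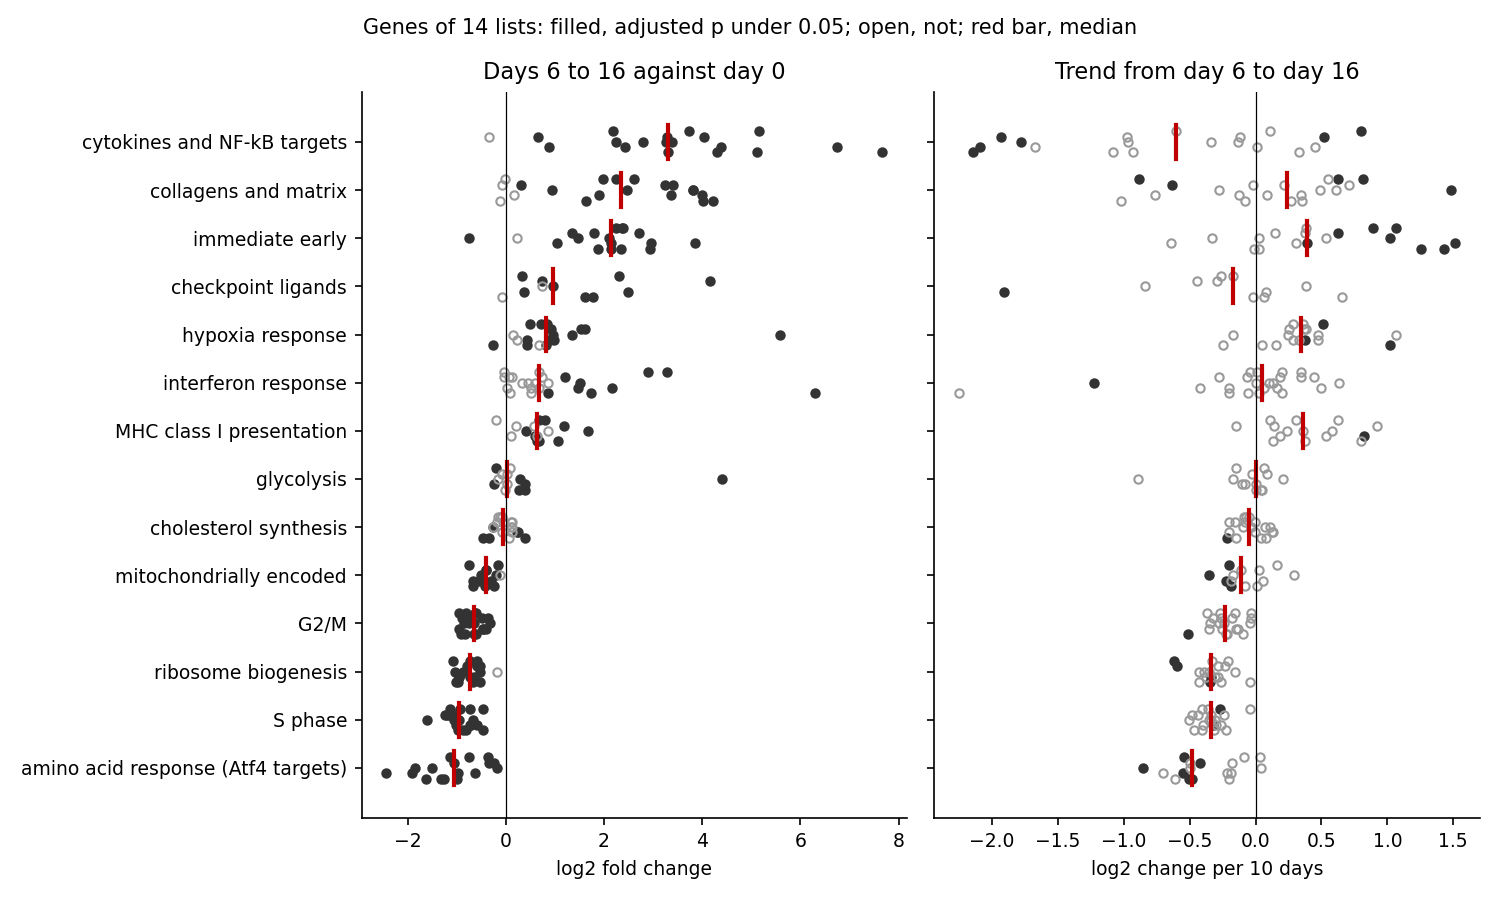
Log2 fold change of days 6 to 16 against day 0 (left) and log2 change per 10 days from day 6 to day 16 (right) for each tested gene of 14 lists, filled where the edgeR adjusted p was under 0.05, with a red bar at the list median. Cytokines, matrix and immediate early genes lie mostly above 2 on the left (medians 3.30, 2.35 and 2.15), and the Atf4, S phase, ribosome biogenesis and G2/M genes lie below 0 (medians -1.05, -0.94, -0.72 and -0.65).

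Collagens and other matrix genes rose, and here the stromal markers rose beside them. Of 20 genes 16 were higher and none lower (median 2.35); Col4a1, Col4a2, Col5a2 and Col8a1 did not pass. Col1a1, the main chain of type I collagen, held 25.2, 40.5 and 19.3 CPM at day 0 and 273 to 820.1 CPM later (median 417; log2 fold change 4.01 ± 0.33, edgeR adjusted p = 1.57e-07). Col3a1 went from 13.4, 19.2 and 26.1 CPM to between 152 and 358 CPM (3.81 ± 0.28), Col6a3 from 13.6 to 25.8 CPM to between 59.1 and 181 CPM (2.62 ± 0.20) and Col6a1 from 19.6 to 44.3 CPM to between 92.9 and 243 CPM (2.47 ± 0.20). None of these overlapped, which their choice required within each line. Dcn, a fibroblast marker, rose by 4.53 on the log2 scale in the same sums. Without the cells that held any stromal marker UMI, an alternative chosen after seeing the data, 10 of 17 tested matrix genes were higher and 3 lower (median 0.92), against 27.6% and 26.1% of all genes in that fit. Col1a1 then held 4.06, 6.62 and 16.1 CPM at day 0 and 12.3 to 294 CPM later (2.56 ± 0.31) and Col3a1 rose by 3.12. Col1a2, the other chain of type I collagen, did not pass (-0.28, against 1.91 with all cells), nor did Sparc (0.08), and Postn was lower (-1.56, against 1.98). In these reduced sums Col1a1 also climbed with time. The rule counts UMIs as sequenced and so depends on the depth of a cell. In line 18 median UMIs per cell were 6386 and 7687 at day 6 and 4099 and 4235 at day 16. They also fell in line 15, and the part of depth was not tested. In line 15 Col1a1 held 18.4 and 12.3 CPM at day 6, 24.9 and 42.1 at day 10, and 40.2 and 53.8 at day 16. In line 18 Col1a1 held 60.1 and 38.2 CPM at day 6, 104 and 155 at day 10, and 294 and 290.04 at day 16, a trend of 2.06 ± 0.26 on the log2 scale per 10 days (edgeR adjusted p = 0.000271), against 0.35 with all cells. The trend of Bgn, a small proteoglycan that binds collagen, was 1.70 against -0.15 with all cells, and that of Col1a2 was 0.70. How much of the difference comes from fibroblasts among the non-immune cells was not tested beyond these 2 sets of sums.

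**Figure D3:**
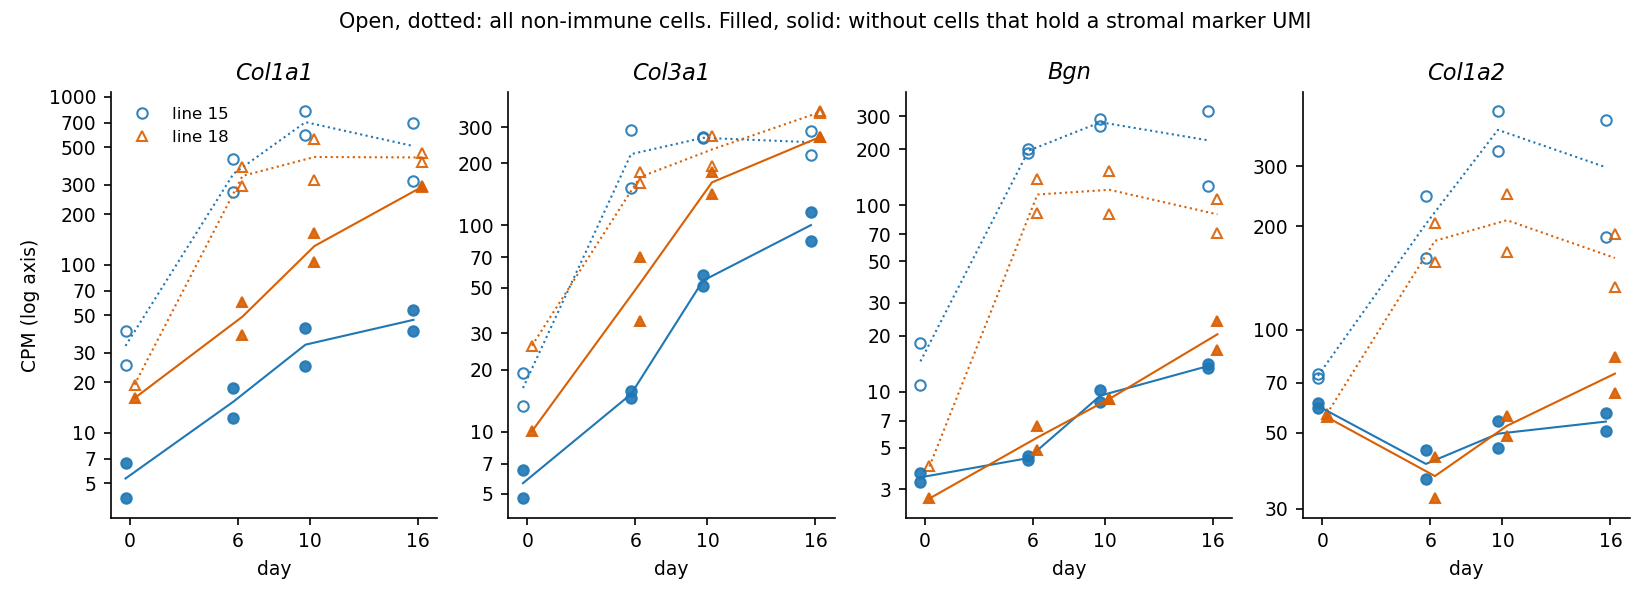
Level (CPM, log axis) of Col1a1, Col3a1, Bgn and Col1a2 by day in each hashtag, with open symbols for all non-immune cells and filled symbols for sums without cells that hold a stromal marker UMI; lines join the means of a control line. Col1a1 in the filled sums reaches 40.2 and 53.8 CPM (line 15) and 294 and 290.04 CPM (line 18) at day 16, while filled Col1a2 lies between 32.2 and 83.4 CPM.

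Secreted and regulatory genes outside these lists also rose. Cp, the copper ferroxidase ceruloplasmin, held 10.6, 15.8 and 15.3 CPM at day 0 and 30.6 to 181 CPM later (median 105; log2 fold change 2.76 ± 0.26). Cd248, a surface glycoprotein of mesenchymal cells, held 5.20, 14.5 and 9.66 CPM and then 25.3 to 119 CPM (2.55 ± 0.25). Rgcc, a regulator of the cell cycle induced by complement, held 18.6, 41.1 and 25.6 CPM and then 114 to 248 CPM (2.64 ± 0.19). In each of the 3 genes the later sums were all above the day 0 sums, which their choice required within each line.

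Cell cycle genes fell as a group. All 20 G2/M genes and all 20 S phase genes were lower than at day 0, with medians of -0.65 and -0.94, against 28.3% of all genes lower. Mki67, the proliferation antigen, held 157, 145 and 185 CPM at day 0 and 80.9 to 145 CPM later (median 116). Rrm2, a subunit of the enzyme that makes deoxyribonucleotides, held 128, 112 and 159 CPM and then 44.2 to 92.7 CPM (-1.19 ± 0.11, edgeR adjusted p = 5.12e-07), without overlap. After each cell was thinned to 2000 UMIs, cells with at least 2 G2/M UMIs were 72.2%, 64.2% and 76.4% at day 0 and 25.9% to 61.2% later (means 70.9% and 39.8%; unthinned 87.7% and 57.4%). The exact permutation p was 0.005102 (two-sided, labels exchanged within lines, 196 arrangements), the smallest value the design allows, and 15 to 50 cells per day 0 hashtag and 64 to 1032 per later hashtag were left out as too shallow. Free RNA in the droplets adds to such shares, and its part was not tested. Median UMIs per cell were 19680, 16225 and 9145.5 at day 0 and 4099 to 13236 later.

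Genes of the amino acid response fell in all 17 tested members, with a median of -1.05. Trib3, a pseudokinase that feeds back on Atf4, held 62.3, 50.9 and 30.1 CPM at day 0 and 9.15 to 19.3 CPM later (median 12.2; log2 fold change -1.90 ± 0.13, edgeR adjusted p = 3.93e-08). Chac1, which breaks down glutathione, held 151, 142 and 54.0 CPM and then 20.1 to 54.9 CPM (-1.86 ± 0.17). It was apart within each line, which its choice required. Enzymes that make serine, asparagine and cysteine followed: Psph was at 195, 164 and 143 CPM and then 46.6 to 91.8 CPM. Asns held 169.8, 144 and 114 CPM and then 40.2 to 79.4 CPM (-1.32 ± 0.10), and Cth held 38.6, 28.9 and 10.79 CPM and then 2.34 to 8.96 CPM (-2.43 ± 0.23). Phgdh, the first enzyme of serine synthesis, declined from 477 to 599.7 CPM at day 0 to 268 to 403 at day 6 and 216 to 269 at day 10. At day 16 it held a similar range of 204 to 270.5 CPM. Of 18 genes of ribosome biogenesis 17 were lower and Bop1 did not pass (median -0.72), and Srm, the spermidine synthase and a Myc target, fell from 296 to 340.2 CPM to between 111 and 289 CPM (-1.08 ± 0.13). Among cells without 2 G2/M UMIs, where line 15 alone kept day 0 sums (65 and 117 cells) and 5.95% of all genes were higher and 6.44% lower, 1 of 17 Atf4 targets was higher and 3 lower (median -0.34), and 2 of 18 ribosome biogenesis genes were lower. That rule counts UMIs as sequenced and so depends on the depth of a cell. TGATGCAA, a pattern bound by Atf4 with its partners, was found in the same promoter windows of Chac1 and Slc7a11, 2 of 15 of these genes with an entry (13.3%), against 0.918% of all genes.

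**Figure D4:**
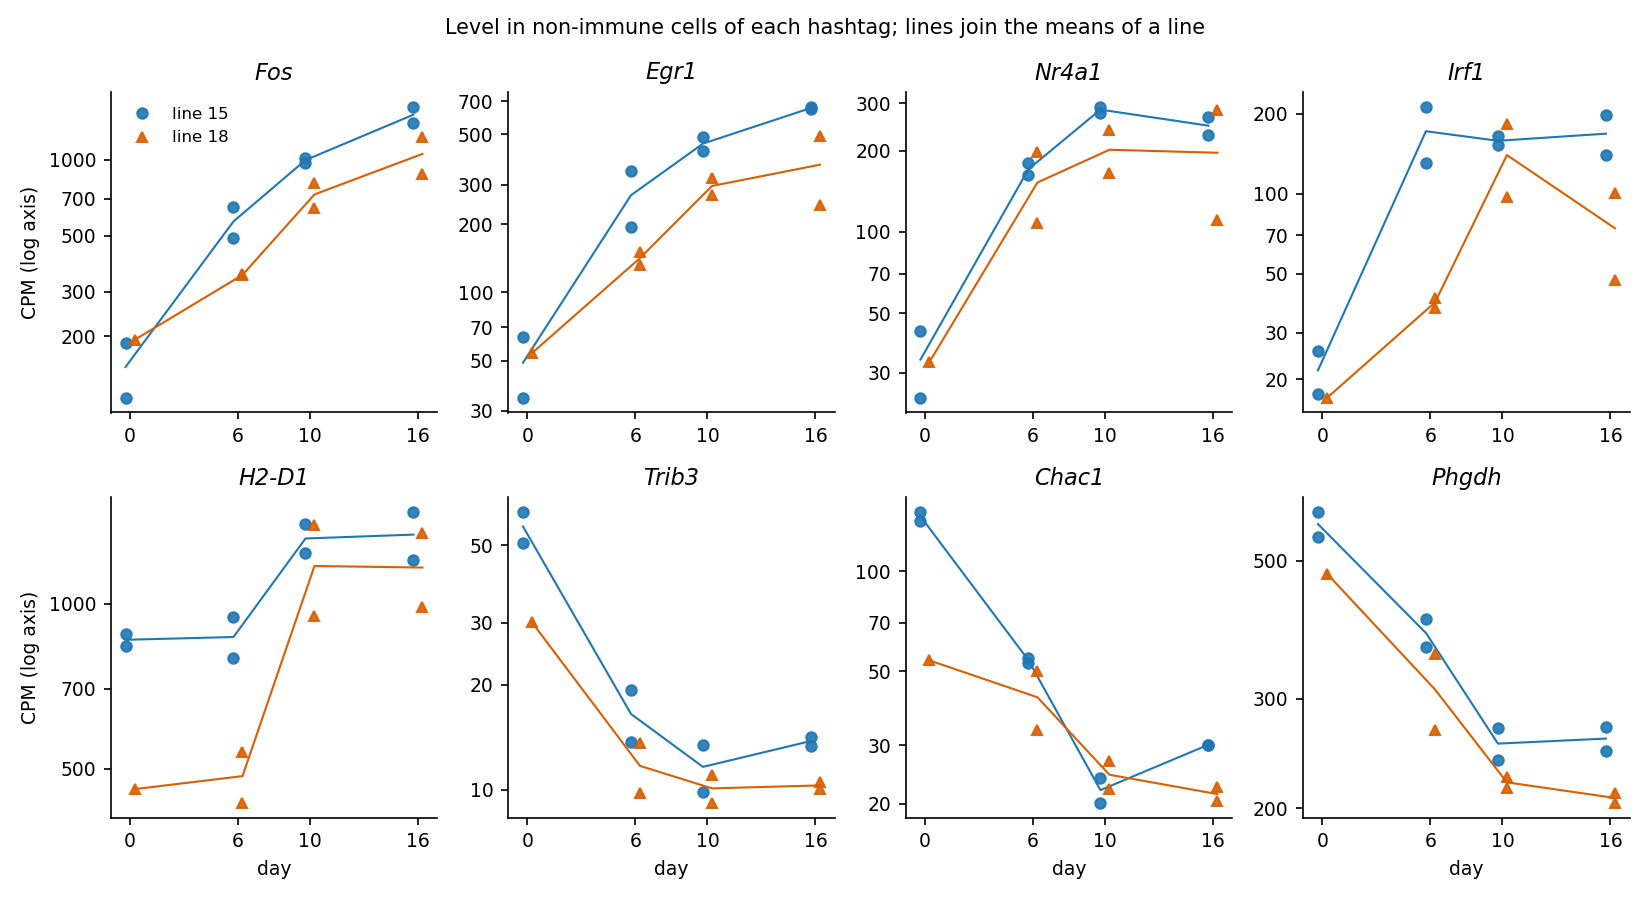
Level (CPM, log axis) of 8 genes by day in each hashtag, with circles for line 15, triangles for line 18 and lines through the means of each line. Fos, Egr1, Nr4a1 and Irf1 are lowest at day 0, H2-D1 steps up between day 6 and day 10, and Trib3, Chac1 and Phgdh decline from day 0 (Phgdh from 477 to 599.7 CPM to 204 to 270.5 CPM at day 16).

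Other genes with large falls had varied roles. Prss23, a secreted serine protease, held 307, 248 and 233 CPM at day 0 and 40.0 to 88.5 CPM later (log2 fold change -2.03 ± 0.15). Ankrd1, a target of the Yap and Taz coactivators that respond to cell shape and stiffness, held 409, 322 and 154 CPM and then 29.1 to 133 CPM (-1.92 ± 0.10, edgeR adjusted p = 8.38e-09). Both lay below day 0 without overlap, which their choice required within each line. Ccnb1ip1, a ubiquitin ligase that acts on cyclin B, fell from 44.9 to 51.4 CPM to between 6.46 and 22.9 CPM (-2.08 ± 0.11), with its lowest values from day 10 on. Snai2, a transcription factor of epithelial-mesenchymal transition, went from 40.6, 38.3 and 23.9 CPM to between 8.35 and 17.5 CPM (-1.47 ± 0.11). Sephs2, which makes selenophosphate for selenoproteins, went from 47.6 to 54.8 CPM to between 15.7 and 28.1 CPM (-1.39 ± 0.07). Adh7, an alcohol dehydrogenase, Pop1, a subunit of RNase P, and Phldb2, a protein of the cell cortex, fell by 1.49, 1.41 and 1.38 on the log2 scale. In cells without 2 G2/M UMIs, Prss23 (-2.30), Ankrd1 (-2.88), Chac1 (-1.19), Pop1 (-1.15) and Phldb2 (-1.48) kept their call. Ccnb1ip1 (-0.84), Trib3 (-0.41), Psph (-0.34), Adh7 (-0.86), Snai2 (-0.64) and Sephs2 (-0.55) did not.

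Within the tumour days a second set of changes appeared. The slope from day 6 to day 16 over 12 sums passed for 2031 of 12570 genes (16.2%), 979 rising (7.79%) and 1052 falling (8.37%), with a median of 0.00 on the log2 scale per 10 days. Leaving out each hashtag in turn gave 936 (without line 18 at day 6 letter B) to 2237 genes, line 15 alone 30, line 18 alone 137, and day 16 against day 6 as a contrast 3718. Among the abundant genes chosen by the size of their slope, the largest rise was that of Spry1, a feedback inhibitor of receptor tyrosine kinase signalling. It held 88.8, 87.0 and 65.9 CPM at day 0, 26.2 to 46.9 at day 6, 88.8 to 141 at day 10 and 163 to 203 at day 16, a slope of 2.20 ± 0.27 (edgeR adjusted p = 0.000513). Spry1 was thus below day 0 at day 6 (-1.05) and above it at day 16 (1.31). Fn1, fibronectin, held 406 to 421 CPM at day 0, 282 to 497 at day 6, 816 to 1308 at day 10 and 1059.6 to 1334 at day 16 (slope 1.48 ± 0.34, edgeR adjusted p = 0.013). Spp1, osteopontin, a phosphoprotein that binds integrins and CD44, stepped up after day 6. It held 5248, 5385 and 5655 CPM at day 0, 4352 to 6704 at day 6, 10241 to 11494 at day 10 and 11430.0 to 13249 at day 16 (slope 1.10 ± 0.21, edgeR adjusted p = 0.00664). Day 6 overlapped day 0 for Fn1 and Spp1, and days 10 and 16 lay wholly above it.

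Among small leucine-rich proteoglycans and related proteins, 5 of 9 rose with time (median 1.10): Spp1, Aspn (2.42), Dmp1 (2.53), Omd (1.29) and Ogn (1.21), and none fell. Without line 18 at day 10 letter A 4 passed, and Ogn did not (edgeR adjusted p = 0.0588). In 2 further libraries that mix lines, where 1.03% of all genes passed, none of the 9 rose and 1 fell. Aspn, asporin, held 0.841 and 0.912 CPM (line 15) and 5.11 CPM (line 18) at day 0, and at day 16 it held 13.4 and 15.4 CPM (line 15) and 66.4 and 63.9 CPM (line 18). The lines differed in level while both moved upward. Without cells that held a stromal marker UMI, a rule that depends on the depth of a cell, 7 of 7 tested members rose with time (median 1.70), against 9.26% of all genes. Dcn and Lum, list members that did not pass with all cells, are themselves stromal markers, so that rule took them out of the test. Of 18 immediate early genes 8 rose further over the tumour days, against 7.79% of all genes, and none fell (3 rose in those mixed libraries): Zfp36 (1.51), Fos (1.43), Egr1 (1.25), Dusp1 (1.07), Ier2 (1.02), Klf2 (0.89), Jun (0.62) and Klf6 (0.39). Fos held 348 to 649 CPM at day 6, 646 to 1019 at day 10 and 880.4 to 1622 at day 16. Cp (1.70), Cd248 (1.69), Edil3 (1.27), an integrin ligand, and Cpq (1.18), a carboxypeptidase, were the other large rises among abundant genes. Ccn1, a matrix protein induced by serum and Yap, held 506 to 671 CPM at day 0, 236 to 381 at day 6 and 475 to 827 at day 16 (slope 1.17 ± 0.19), so that day 6 was below day 0 and day 16 overlapped it. Against day 0 the log2 fold change of Ccn1 was -0.91 at day 6 and still -0.87 at day 10. Of MHC class I genes only H2-D1 passed (0.83, edgeR adjusted p = 0.0423), and 5 of 15 passed without line 18 at day 10 letter A, against 8.39% of all genes.

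**Figure D5:**
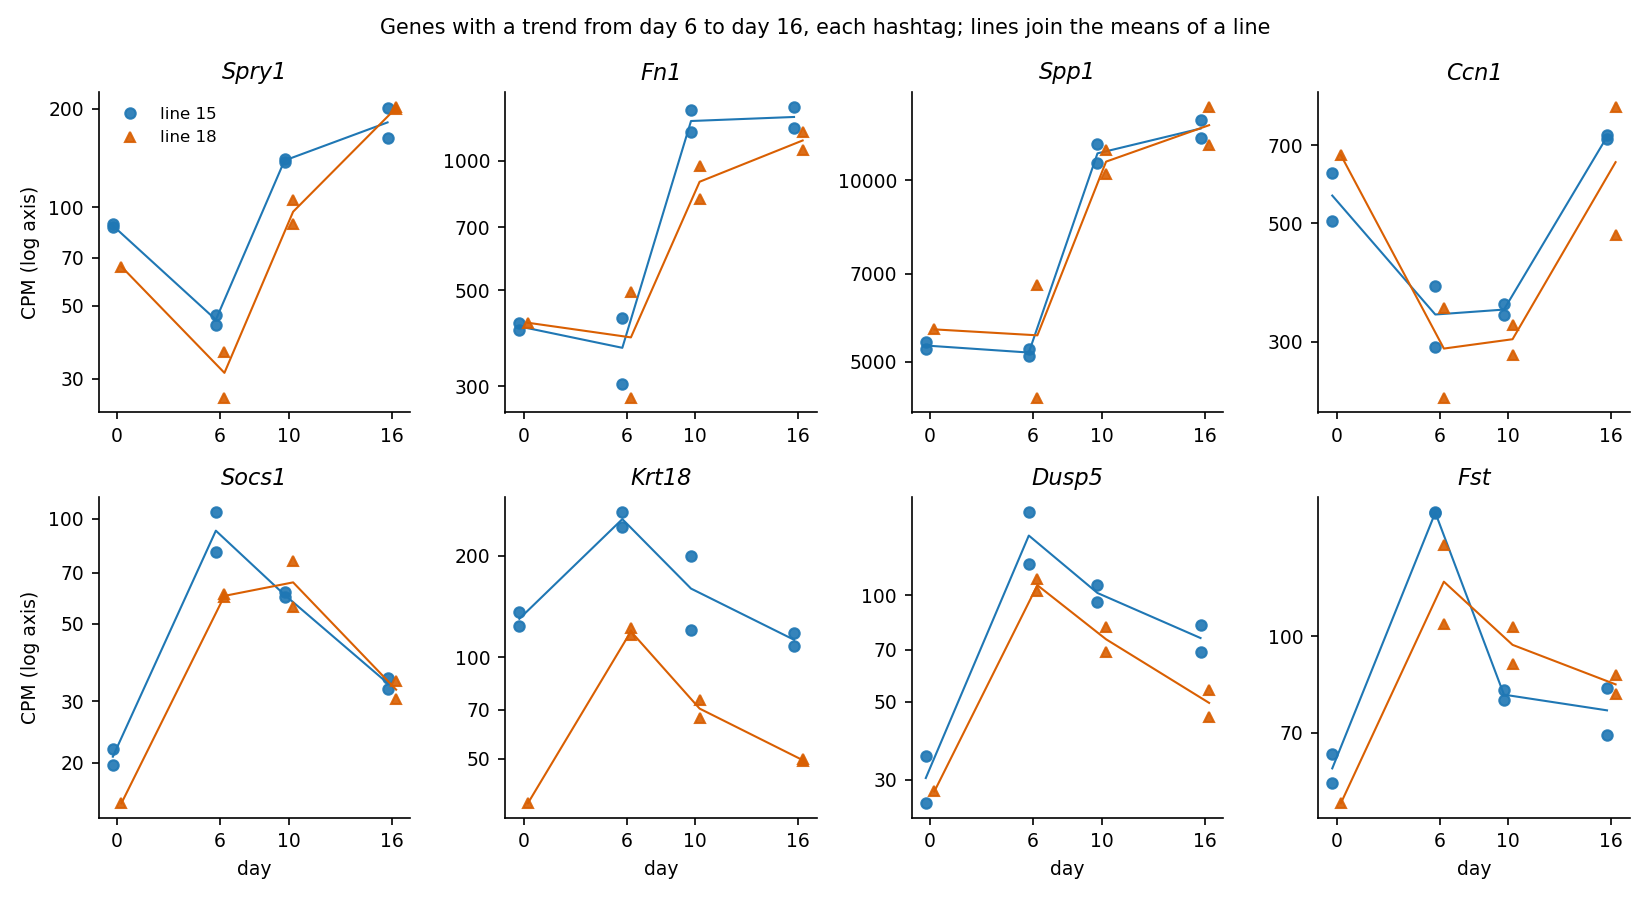
Level (CPM, log axis) of 8 genes with a trend from day 6 to day 16 by day in each hashtag, with circles for line 15, triangles for line 18 and lines through the means of each line. Spry1 dips at day 6, Ccn1 is low at days 6 and 10, and both are higher at day 16. Fn1 and Spp1 step up between day 6 and day 10. Socs1, Krt18, Dusp5 and Fst peak at day 6 in the means of both lines, except for Socs1 in line 18.

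Several of the genes with the largest falling slopes had a peak at day 6. Other falling genes were already below day 0 at day 6: Ccnb1ip1 (-1.31), Chac1 (-1.22), Sephs2 (-1.03) and Pop1 (-1.02). The 2 patterns were not counted over all falling genes. Socs1, which blocks Janus kinase signalling and is itself induced by interferon, held 19.8, 21.9 and 15.3 CPM at day 0, 59.5 to 105 at day 6, 55.8 to 75.7 at day 10 and 30.5 to 35.05 at day 16 (slope -1.23 ± 0.17, edgeR adjusted p = 0.000853). Every later sum was above day 0. Krt18, a keratin of simple epithelia, held 269.7 and 244 CPM (line 15) and 116 and 122 CPM (line 18) at day 6, and 118, 108, 49.2 and 49.97 CPM at day 16 (-1.21 ± 0.13, edgeR adjusted p = 0.000274). Dusp5, a nuclear phosphatase of Erk, went from 103 to 172 CPM at day 6 to 45.3 to 82.2 CPM at day 16 (-1.03 ± 0.11), against 25.8 to 34.97 CPM at day 0. Col4a2, a chain of basement membrane collagen, fell by 0.89 over the 10 days, and Fst, the activin antagonist follistatin, by 0.78. Clcf1, a cytokine of the Il6 family, fell by 0.74. Nr1d1, a repressor of the circadian clock, fell by 0.75 with an edgeR adjusted p of 0.045; it held 87.9 to 107 CPM at day 6, 38.0 to 54.8 at day 10 and 48.3 to 59.9 at day 16, and the call ended (adjusted p of 0.0505 to 0.113 in edgeR) without any 1 of 9 sums: either letter of either line at day 6 or day 16, and line 18 at day 10 letter A. The list of p53 targets had 7 of 14 genes falling and none rising over these days, and that of the unfolded protein response also 7 of 14 (3 of 14 without line 18 at day 10 letter A, where 7.74% of all genes fell).

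Tumours of the same lines in the 2 mixed libraries, 6 hashtags with 9505 non-immune cells that the rule did not use, give a separate reading of the trend. There 131 of 12692 genes passed (1.03%). Of 976 genes that rose in the own libraries and were tested in both, 948 (97.1%) had a rising slope in the mixed libraries, against 77.1% of all genes with a rising slope. Of 1046 that fell, 1023 (97.8%) fell there, against 79.9%. Spry1 (2.57), Egr1 (1.77), Cd248 (1.71), Socs1 (-1.31) and Clcf1 (-1.18) passed in the mixed libraries on their own, and Spp1 (1.02), Fn1 (1.47) and Krt18 (-0.50) did not. Day and library cannot be told apart for line 18 in the mixed libraries. For line 15, whose days share 1 mixed library with 1 hashtag a day, 90.1% of the rising and 83.3% of the falling genes moved the same way between day 6 and day 16, against 72.5% and 57.7% of all genes.

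Lines 15 and 18 were then compared in their changes. No gene of 13612 (0.0%) differed between lines in the change from day 0 and none of 12756 (0.0%) in the trend at an edgeR adjusted p under 0.05. At an unadjusted p under 0.05 edgeR gave 986 genes (7.24%) and 416 genes (3.26%), and DESeq2 called 9 and 0. Line 18 has 1 sum at day 0. Levels did differ between the lines: Car9 at day 0 was 54.5 and 62.7 CPM in the former and 11.9 CPM in the latter, and Krt18 was 136 and 124 against 36.9 CPM.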

How the data were processed

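Per the labels' protocols, cells of dissociated tumours were hashed, sorted live and run on the 10x 5′ v2 kit. The deposited values are UMI counts for each barcode and gene, which the authors made with Cell Ranger 6.0.0 and mm10 according to the submitters' processing notes, and come with a sheet that gives each hashtag a line, day and letter. The 2 libraries held 185839492 (line 15) and 182336329 (line 18) gene UMIs. Hashtag doublets were left out by the ratio rule, doublets within a hashtag remain, and a hashtag needed at least 50 non-immune cells to be used.

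Deposited counts were summed per hashtag over non-immune cells and fitted in edgeR 4.0.16 (R 4.3.3; filterByExpr, TMM, glmQLFit, glmQLFTest) with line and day as factors, or line and a slope over days 6 to 16, with Benjamini-Hochberg adjustment at 0.05 over all genes. Interaction terms gave the differences between lines. SE is the log2 fold change over the root of F. Immune cells held at least 1 Ptprc or 2 Tyrobp UMIs. The fits were tested on simulated counts. Shares were compared by exact permutation (scipy 1.17.1).

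Named genes were the 12 largest changes each way from day 0 and the 8 largest slopes each way among genes past the threshold with a logCPM of at least 4, a UMI in at least 25% of cells and no place on a marker list of another cell type, with rises at or above the immune cell level. For the change from day 0, every later sum had to lie on the same side of every day 0 sum within each line. For slopes, the sign had to be the same in each line fitted alone. Members of the lists were named as well. Some further members were named after their values were seen, to show exceptions within a list. A few genes that the rule named are not reported here. The lists and the parts of the design were chosen with earlier results of these data known.

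Alternatives were DESeq2 1.42.0, RLE scaling, no low-count filter, each line alone, leaving out each hashtag, the letter as a replicate block, stricter rules for cells (at least 1000 genes, at most 10% mitochondrial UMIs), hashtags (at least 50 counts and 10 times the second) and immune cells, leaving out stromal or cycling cells, the mixed libraries, and a contrast in place of the slope. Leaving out cells with any stromal marker UMI, and the sums without line 18 at day 10 letter A, were chosen after seeing the data. Promoters came from RefSeq (GRCm38.p6).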

Additional observations from a re-analysis of the deposited data

Results flagged for a closer look

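In 228 groups of 4 hashtags of the same day, over the named genes and the shares, 11 had a hashtag far from the other 3. Each group holds hashtags of both lines, and several of the 11 fall on the same hashtag. How many such groups chance would give was not tested. At day 10, line 18 letter A had 299 CPM of Gbp2 against 46.5 to 55.2 CPM in the others, and 23.2 CPM of Cd274 against 6.62 to 7.58 CPM. It also had the lowest Col3a1, at 195 CPM against 264 to 273, and the lowest Hspe1, at 724 CPM against 783 to 795. At day 6, line 15 letter B had 12.8 CPM of Cd274 against 4.87 to 5.399 CPM, 24.9 CPM of Ackr3, a scavenging chemokine receptor, against 27.3 to 27.6, and 44.2 CPM of the skeletal muscle gene Mylpf against 1.19 to 4.74 CPM. Mif was highest in line 15 letter B at day 10, at 2621 CPM against 2177 to 2240.4. At day 16, line 15 letter B had 239 CPM of Rgcc against 175 to 183, and line 15 letter A had 163 CPM of Spry1 against 199 to 203. The latter hashtag also had the lowest share of non-immune cells, 53.3% against 73.9% to 78.0%.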

How the results depend on the processing

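No gene chosen by the size of its change turned direction, which for single lines the choice itself required. The balance of calls did: line 15 alone gave 3164 higher and 3377 lower against day 0, and the trend without the filter on low counts 1061 rising and 806 falling. It also turned in line 18 alone, without stromal cells and without cycling cells for day 0, and in each line alone, the mixed libraries, the replicate block, the stricter cell and immune rules and the sums without stromal cells for the trend. Leaving out line 18 at day 10 letter A turned the trend balance too, with 1062 genes rising and 979 falling. Other genes named in the text did: without cells that held a stromal marker UMI Postn was called lower (-1.56) and Col1a2 had -0.28, and without cycling cells Myc (0.50), Mki67 (0.77, a gene that this rule counts), Anln (0.41), Atf4 (0.11) and Mif (0.03) had positive values that did not pass. Against 7424 genes called from day 0, separate fits called 2377 in line 18 alone, with 1 day 0 sum, and 1381 without cells with 2 G2/M UMIs, with line 15 as the only source of day 0 sums. The latter gave 1282, 1315 and 1259 for days 6, 10 and 16. The 2031 trend genes became 30 in line 15 alone, 137 in line 18 alone, 131 in the mixed libraries, 3718 as a contrast of day 16 with day 6, 1212 under the stricter hashtag rule and 727 without cycling cells; each line alone and the mixed libraries have fewer sums, and the cause of the others was not tested. The difference between lines in the change from day 0 was called for 9 genes by DESeq2 and 127 without the filter on low counts. Leaving out each hashtag gave 5711 to 7516 genes for the later days, 4148 to 5978 for day 6, 5938 to 7441 for day 10, 5661 to 7315 for day 16, 936 to 2237 for the trend, 0 to 1 and 0 to 0 for the differences between lines, and -34.0 to -31.7 points for the share of non-immune cells, which was -49.5 points under the stricter hashtag rule. The trend count moved by over 1.5 times without line 15 at day 6 letters A (1350) and B (1318) or day 16 letter A (1198), or without line 18 at day 6 letter B (936) or day 16 letters A (1230) and B (1044). Correlations of deviations between sums of the same letter ran from -0.18 to 0.349, with both signs, and the letter as a replicate block gave 7345 genes against day 0 and 1465 for the trend. For the genes chosen by size, 303 calls against day 0 were kept under the other alternatives and 9 were lost, 7 without cycling cells and 2 in line 18 alone; 207 trend calls were kept and 33 lost, of which 14 in line 15 alone, 9 in line 18 alone and 7 in the mixed libraries. Without cycling cells, 3 of 24 interferon targets were called higher, against 5.95% of all genes. Without the filter the median of all genes moved by 0.105. The number of hashtag sums at day 0 and the 196 cells of line 18 there limit every comparison with day 0.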

Other observations

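Heat shock genes moved in both directions. Of 12 tested against day 0, 5 were higher and 5 lower, against 29.6% of all genes higher and 28.3% lower. The inducible Hspa1b held 23.5, 38.3 and 59.1 CPM at day 0 and 109.9 to 206 CPM later (log2 fold change 2.13 ± 0.19, edgeR adjusted p = 3.68e-07), the near-identical copy Hspa1a also rose (5.11), and Dnajb1, Hspb1 and Bag3 rose by 1.33, 1.32 and 0.996 on the log2 scale. Among those that fell, the mitochondrial chaperone Hspe1 held 1743, 1645 and 1657 CPM and then 716 to 1277 CPM (-0.97 ± 0.06), Hspd1 fell by 0.96 on the log2 scale, and the cytosolic chaperones Hsp90aa1 (-0.71), Hsp90ab1 (-0.24) and Hspa8 (-0.21) were lower too. The groups overlapped for neither Hspa1b nor Hspe1. Of 13 genes encoded by the mitochondrial genome 12 were lower (median -0.40), and mt-Co1 did not pass; the cells were themselves chosen by a limit on mitochondrial UMIs.

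Mif itself was lower at the later days, from 3023, 3032 and 2693 CPM to between 1857 and 2846 CPM (-0.32 ± 0.07, edgeR adjusted p = 0.000791). Ackr3, a receptor listed with it, held 2.98, 7.80 and 6.82 CPM at day 0 and a narrow range of 24.9 to 32.1 CPM later (2.40 ± 0.19). Metallothionein Mt2 rose from 501 to 679 CPM to between 1316 and 2052 CPM. Of 10 genes of dedifferentiated melanoma 6 were higher and 1 lower (median 1.08), against 29.6% of all genes higher and 28.3% lower. Without line 18 at day 10 letter A the largest rises of this list were Wnt5a (4.32) and Egfr (3.98). Fibroblast markers rose in the same sums, and their part in this list was not tested. Sox9, a neural crest factor, rose by 2.13 on the log2 scale, from 13.6 to 32.4 CPM to between 52.6 and 143 CPM. Nes, nestin, fell by 0.96. The skeletal muscle gene Mylpf was at 212 and 121 CPM in line 15 at day 0 but at 3.41 CPM in line 18 at day 0, and at 1.19 to 44.2 CPM later.

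Proteases of the matrix also moved. Of 13 metalloproteinases and their inhibitors 11 were higher and Timp2 was lower (median 1.16). Mmp14, a membrane-bound collagenase, held 59.6 to 68.1 CPM at day 0 and 89.7 to 191 CPM later (1.13 ± 0.12, edgeR adjusted p = 1.14e-06), and Adamts4, which cleaves aggrecan, 4.54 to 9.32 and 13.3 to 27.8 CPM (1.68 ± 0.15), both without overlap. Of 10 complement genes 8 were higher and Cd59a was lower (median 3.20). Serping1, the inhibitor of the first complement component, held 1.14 to 2.74 CPM at day 0 and 13.7 to 53.1 CPM later (3.96 ± 0.52), and Clu, clusterin, 11.3 to 13.1 and 18.0 to 89.0 CPM (2.16 ± 0.22). Without cells that held a stromal marker UMI, 6 of 11 of the metalloproteinase list were higher and 1 lower (median 0.68), and 3 of 8 complement genes were higher and 1 lower (median 1.41), against 27.6% of all genes higher and 26.1% lower in that fit.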
